A study of Mus musculus with 12 samples.

Results

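The comparison described here is the early step of a time course in mouse pro-erythroblasts, 6 h against 1 h. It takes the 3 arrays labelled 6 h and the 3 labelled 1 h, 6 of the 12 arrays in the series, and pairs them by shRNA id. Between these times the cells lost a set of growth factor response transcripts, such as Egr1, Dusp4 and Klf6. Some erythroid genes rose in all 3 lines, among them the transcription factor gene Klf1, the heme enzyme gene Uros and the iron carrier gene Slc25a37. Of 12673 genes tested, 616 differed (4.86%), 371 higher (2.93%) and 245 lower (1.93%) at 6 h.

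All arrays come from I/11, a line of immature erythroid progenitors that was derived from the fetal liver of p53-deficient mice, so every group shares that loss. The labels describe the cells as expanding in serum-free medium with erythropoietin, stem cell factor (SCF, the ligand of Kit) and dexamethasone, a synthetic glucocorticoid. Stable lentiviral infection with a pLKO vector gave 3 lines: scr with a scrambled control shRNA, and sh14 (PLCy1 sh 14) and sh133 (PLCy1 sh 133), both with hairpins against Plcg1, which encodes phospholipase C gamma 1. The lines were sampled at 1, 6, 12 and 22 h with 1 array per line and time. The starting event of the hours is not stated in the labels, nor is a change of medium or the use of separate cultures. The 3 pairs are thus 3 lines rather than 3 repeats of 1 line, and p-values measure the spread left between these arrays, which may be technical. Array titles carry 2 different dates of unstated meaning. The scr pair lies within one date and the sh14 pair within the other, while sh133 carries one date at 1 h and the other at 6 h.

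Erythropoietin binds its receptor on erythroid progenitors and activates the kinase JAK2, which switches on the transcription factor STAT5 and the RAS-ERK and PI3 kinase routes, and SCF drives ERK through Kit. A pulse of ERK activity turns on immediate early genes such as Egr1 and Fos within minutes, followed by phosphatases and adaptors that switch the route off again. Glucocorticoids hold progenitors in self-renewal, and GATA1, KLF1 and their partners raise the genes of heme, iron and membrane as the cells mature.

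Values are log2 probe set signals, in which a difference of 1 is a change of 2-fold, and the brightest probe set stands for each gene. Values of the 3 lines are given in the order scr, sh14, sh133. Array medians lay between 1.84 and 1.92, and a signal under 1.92 is near background, where the size of a change is uncertain. Of 13 erythroid progenitor markers on the array, 12 lay above 1.92, with a mean level of 6.63 to 7.01 over the 1 h arrays and 6.97 to 7.39 over the 6 h arrays. Of 12 macrophage and monocyte markers 3 lay above 1.92 (Csf1r at 2.37, Lyz2 at 2.29 and Vcam1 at 2.40 over all arrays), and the mean level of that list was 1.35 to 1.41 at 1 h and 1.36 to 1.52 at 6 h. Lists for neutrophils, stroma and endothelium had mean levels of 1.41 to 1.59 and those for lymphocytes and hepatocytes 1.59 to 1.99. Of 10 megakaryocyte markers 6 lay above 1.92, with mean levels of 2.88 to 3.09 at 1 h and 2.73 to 3.37 at 6 h. Its brightest were Itga2b (6.44 over all arrays) and Pf4, which went from 5.08 to 7.37 in sh133, from 4.91 to 4.98 in sh14 and from 4.49 to 4.22 in scr (fit 0.30, adjusted p = 0.812). Of 11 mast cell and basophil markers 7 lay above 1.92, with mean levels of 2.81 to 3.46 at 1 h and 2.63 to 3.39 at 6 h. Hdc, the histamine-making enzyme gene, was lower at 6 h in every line, 9.47, 8.31 and 8.88 against 8.69, 7.66 and 7.04 (-0.86 ± 0.22, adjusted p = 0.0579), as was Ms4a2 (-0.62, adjusted p = 0.0511), while Mitf rose (0.82). The part of other cell types in the results was not tested. In a culture, fewer cells of a type and less RNA per cell cannot be told apart.

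The change from 1 to 6 h was tested by limma with terms for time, line and title date. The fitted difference is given with its standard error (SE), and a gene is called where its adjusted p is under 0.05. At an unadjusted p under 0.05 there were 2391 genes. Of the 616 called genes, 605 moved the same way in all 3 lines (4.77% of tested genes), 361 higher (2.85%) and 244 lower (1.93%). Among all tested genes 40.9% had 1 sign in all 3 lines. The other 11 called genes (Ajuba, Ccnd2, Chst13, Gbe1, Hoxc4, Jrk, Pou3f4, Srxn1, Stau2, Tab3 and Tapbpl) moved the other way in sh133. The median change was 0.64 for the called genes that rose and -0.75 for those that fell, against 0.03 over all tested genes, with a median SE of 0.13. Falls reached further than rises: 77 called genes fell and 30 rose at least 2-fold in the fit, and 26 fell and 9 rose at least 2-fold in every line. Those 35 genes are 0.276% of the genes tested. Values at 1 h and 6 h did not overlap for 466 called genes, and for 14.9% of all tested genes.

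The number of calls moved with the arrays and settings used. Without the scr array at 6 h 97 genes passed, without sh14 at 6 h 188, without sh133 at 6 h 236 and without scr at 1 h 311. It was 417 without sh133 at 1 h and 684 without sh14 at 1 h. Of the 616 genes, 79 (34 higher, 45 lower) kept their call whichever of the 6 arrays was left out. Pairing by line mattered, since 255 genes passed with no line term. With no title date term 946 passed, and 133 passed in the scr and sh14 lines alone, whose pairs each lie within 1 date. Rises made up 60.23% of the calls as deposited, 50.96% (291 higher, 280 lower) after the arrays were quantile normalized again and 41.61% (233 higher, 327 lower) after centring on array medians. No called gene changed sign under either scaling. For a single gene, an exact sign-flip test over 3 pairs cannot give a two-sided p under 0.25.

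**Figure D1:**
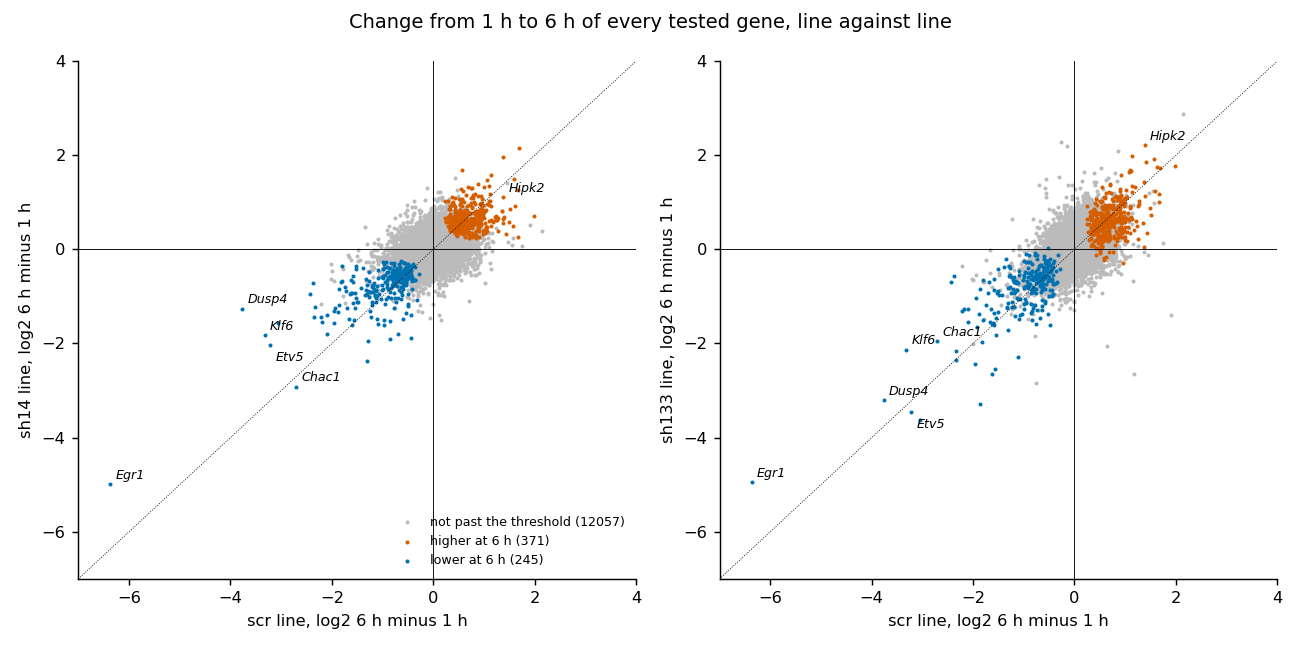
Change of every tested gene from 1 h to 6 h (log2 signal), scr on the horizontal axes against sh14 (left) and sh133 (right), with genes called higher in orange (371), lower in blue (245) and the rest in grey. Egr1 lies farthest out in both panels. The called genes sit along the diagonal, which the call itself favours, since the lines are its replicates.

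Most genes that moved at least 2-fold in 1 line moved the same way in the others, which used other arrays. In scr, 139 genes with a signal of at least 3 at the brighter time were at least 2-fold lower at 6 h. Of these, 94.2% were also lower in sh14, where 42.0% of all genes of that brightness were, and 97.8% were lower in sh133, against 50.1%. For the 68 genes at least 2-fold higher in scr, 94.1% were higher in sh14 (57.9% of all) and 91.2% in sh133 (49.8% of all). The reach of the change differed by line, with 223 genes at least 2-fold different in scr, 130 in sh14 and 230 in sh133. Across the 12673 genes, which are not independent of each other, the differences correlated at 0.47 between scr and sh14, 0.56 between scr and sh133 and 0.40 between sh14 and sh133.

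Egr1, a zinc finger factor of the first wave after growth factor signals, fell furthest of all genes. Its signal was 9.49, 8.11 and 8.79 at 1 h and 3.12, 3.12 and 3.85 at 6 h. Every 6 h array lay more than 4 log2 units under every 1 h array. The fitted change was -5.53 ± 0.35 (SE, 95% confidence interval -6.31 to -4.75, adjusted p = 0.000225), a signal at 6 h of 2.17% of that at 1 h. It then stayed low, at 2.63, 3.40 and 3.56 at 12 h.

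Of 25 immediate early genes listed, all were on the array and 22 were tested. Of these 9 fell and 0 rose (Egr1, Klf6, Atf3, Fos, Klf10, Ier2, Klf2, Fosl1 and Jund), and their list's median was -0.60. Krüppel-like factor Klf6 went from 6.76, 6.23 and 6.28 at 1 h to 3.43, 4.40 and 4.15 at 6 h, with no overlap (-2.48 ± 0.32, adjusted p = 0.0037). Its 3 next brightest probe sets fell by means of 2.17, 2.40 and 2.10 over the lines. Atf3, a stress and growth factor induced partner of AP-1, went from 4.36, 4.73 and 3.66 to 2.26, 2.93 and 2.39 (-1.85 ± 0.23, adjusted p = 0.00301). Ier2 was brighter, at 7.55, 7.34 and 7.18 against 6.06, 6.22 and 6.20 (-1.21 ± 0.16, adjusted p = 0.00405). Fos, the founding AP-1 subunit, was at 3.35, 2.38 and 1.90 at 1 h and at 0.92, 1.42 and 1.21 at 6 h, so that its later values are at background. The means of Fos at 6, 12 and 22 h were 1.18, 1.13 and 1.11. It thus passed the filter, a mean of 1.45 over all arrays, only through its 1 h arrays, and a rise could not have been seen.

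The AP-1 partners of Fos moved less evenly. Jund fell in each line (8.30, 8.21 and 8.35 to 7.46, 7.38 and 7.89, -0.70 ± 0.16, adjusted p = 0.0336). Jun fell by 2.21 in scr, 1.17 in sh14 and 0.36 in sh133 and missed the threshold (-1.39 ± 0.37, adjusted p = 0.0639). Junb had -0.38 ± 0.18 (adjusted p = 0.288), and Ier5 and Ier3 had differences of 0.13 and 0.02, also not past it. Without any single one of the 6 arrays, 5 of the 9 calls held (Egr1, Klf6, Atf3, Ier2 and Klf2), and 5 remained without scr at 6 h, the array whose loss cost most. Klf2 changed by -0.97, -1.50 and -1.06, but its mean signal of 1.90 over all arrays is near background, so the size is uncertain.

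The promoter of Klf6 is shown because Klf6 was the second largest immediate early change and its window held more CCAAT boxes than any other window printed here. It was chosen, like the other 3 promoters printed, after the values were seen. It runs 5′ to 3′ from 250 bases before to 30 after the RefSeq start at chr13:5861239-5861518 (GRCm38.p6, plus strand), with the 4 CCAAT boxes on either strand in capitals.
Klf6: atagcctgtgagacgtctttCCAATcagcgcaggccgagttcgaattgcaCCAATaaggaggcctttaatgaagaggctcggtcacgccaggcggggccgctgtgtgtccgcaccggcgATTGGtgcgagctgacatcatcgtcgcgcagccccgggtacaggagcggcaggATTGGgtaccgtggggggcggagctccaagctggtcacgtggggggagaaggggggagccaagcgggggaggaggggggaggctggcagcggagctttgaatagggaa
A CCAAT box was in 42.7% of 164 promoters of falling genes, 42.7% of 227 promoters of rising genes and 38.2% of all 8133 promoters of tested genes with 1 listed start.

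Of 16 tested genes that ERK signalling induces, most of which restrain it, 9 fell and 0 rose, with a list median of -0.60. Lower values in all 3 lines were seen for 10 of the 16, where 40.9% of all tested genes had 1 sign. Etv5, an ETS factor downstream of ERK, went from 4.82, 3.70 and 5.07 at 1 h to 1.60, 1.67 and 1.61 at 6 h (-2.78 ± 0.23, adjusted p = 0.000907). All its 6 h values lie under 1.92, so its floor is background. The means of Etv5 at 6, 12 and 22 h were 1.63, 1.21 and 0.98. It thus passed the filter, a mean of 1.45 over all arrays, only through its 1 h arrays, and its place among the falls was partly set by that filter. Dusp4, a nuclear phosphatase of ERK, went from 5.66, 3.21 and 4.78 to 1.89, 1.95 and 1.57 (-2.64 ± 0.44, adjusted p = 0.0101). Its fall in sh14 was 1.26 against 3.76 in scr and 3.21 in sh133, from a lower start in sh14. Without scr at 6 h its adjusted p was 0.0971.

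Spred2, which blocks RAF activation by RAS, had 6.35, 6.67 and 6.47 at 1 h and 4.42, 5.43 and 4.82 at 6 h, with no overlap (-1.62 ± 0.16, adjusted p = 0.00157). Spred1, its relative, fell by 1.10 ± 0.13 in the fit (adjusted p = 0.00284), from 5.64, 5.85 and 4.82 to 4.43, 4.73 and 4.16. The phosphatase genes Dusp10 (-1.02), Dusp6 (-1.43) and Dusp5 (-0.68), the ERK-induced Phlda1 (-1.44) and the inhibitor Spry2 (-0.53) completed the 9. Dusp16, a phosphatase of JNK and p38 that was not on the list, went from 5.82, 6.57 and 5.71 to 3.64, 5.03 and 4.44 (-1.78 ± 0.17, adjusted p = 0.00113). Members not past the threshold included Dusp1 (-0.45 ± 0.17, adjusted p = 0.184), lower in scr and sh14 and higher in sh133, and Dusp2 (0.05). The 5 others had mean signals under 3. The 9 calls fell to 4 without scr at 6 h, and 4 held whichever array was left out (Etv5, Spred2, Spred1 and Dusp10).

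**Figure D2:**
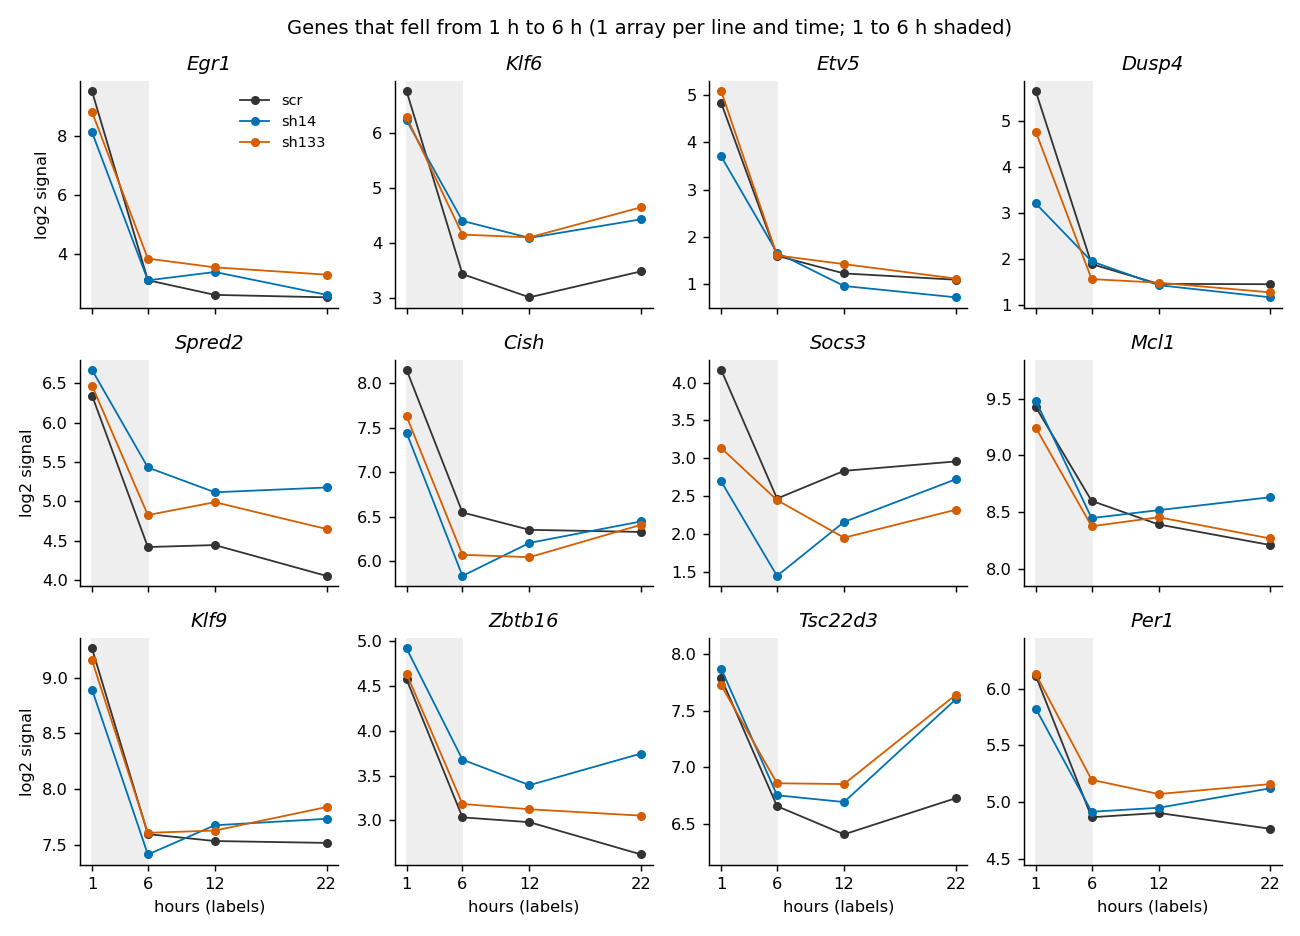
Log2 signal of 12 falling genes against labelled hours, 1 array per line and time, with the step from 1 to 6 h shaded and a separate vertical scale in each panel. Each gene is lower at 6 h than at 1 h in scr, sh14 and sh133, and Egr1 drops from between 8.11 and 9.49 to between 3.12 and 3.85.

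Among 18 tested genes that STAT5 is known to induce or that belong to its feedback, 6 fell and 2 rose, with a list median of -0.29. Cish, the SH2 protein that STAT5 induces to damp cytokine receptors, fell by nearly the same amount in each line. It had 8.15, 7.44 and 7.63 at 1 h and 6.55, 5.83 and 6.07 at 6 h, changes of -1.61, -1.61 and -1.56 (fit -1.56 ± 0.18, adjusted p = 0.0025). The suppressors Socs3 (4.17, 2.70 and 3.14 to 2.47, 1.45 and 2.45, -1.33 ± 0.27, adjusted p = 0.0227) and Socs1 (-0.74 ± 0.15, adjusted p = 0.0231) followed. Socs3 at 6 h reached background in sh14. Its second probe set, of mean signal 2.18 against 2.61, changed by -0.60, 0.34 and 0.08, so its fall rests on the brightest in sh14 and sh133.

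The survival gene Mcl1, of the BCL2 family, went from 9.43, 9.48 and 9.24 to 8.60, 8.44 and 8.37 (-0.95 ± 0.13, adjusted p = 0.00384). Its other probe sets, of mean signal 6.21 to 7.65, fell less, by means of 0.37 to 0.69 over the lines. Cdkn1a, encoding the cell cycle inhibitor p21, went from 6.29, 5.84 and 6.33 to 4.42, 4.51 and 4.96 (-1.52 ± 0.13, adjusted p = 0.000907). The cytokine Osm completed the 6 (-0.70). The 2 that rose were Gfi1b (0.62), an erythroid repressor described below, and the cyclin Ccnd2 (0.48 ± 0.12, adjusted p = 0.0476), which was higher in scr and sh14 and 0.19 lower in sh133. Pim1 (-0.41, adjusted p = 0.228) and Bcl2l1, the gene of BCL-XL (-0.06 ± 0.11, adjusted p = 0.85), did not pass. Without scr at 6 h 3 of the 8 calls remained, and Cish, Mcl1 and Cdkn1a held without any 1 array.

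The Cish promoter is shown because 2 STAT sites, TTCNNNGAA, stand next to each other at its start, their first bases at and 11 bases after it. The window is chr9:107296409-107296688 (GRCm38.p6, plus strand, RefSeq), with the STAT sites in capitals.
Cish: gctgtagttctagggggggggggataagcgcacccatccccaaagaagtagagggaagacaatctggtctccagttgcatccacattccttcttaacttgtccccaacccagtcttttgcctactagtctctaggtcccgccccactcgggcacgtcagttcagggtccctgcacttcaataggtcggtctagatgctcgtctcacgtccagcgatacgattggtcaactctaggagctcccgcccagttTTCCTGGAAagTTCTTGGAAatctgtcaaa
A STAT site was in 4.88% of promoters of falling genes, 6.17% of rising genes and 6.34% of all, so windows of falling genes did not hold it more often.

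Of 23 tested target genes of the glucocorticoid receptor 9 fell and 0 rose. The list median was -0.45. Klf9, a repressor that glucocorticoids induce directly, was at 9.26, 8.89 and 9.16 at 1 h and 7.59, 7.41 and 7.61 at 6 h (-1.54 ± 0.13, adjusted p = 0.000907). Zbtb16, encoding PLZF, went from 4.57, 4.92 and 4.64 to 3.03, 3.68 and 3.18 (-1.41 ± 0.15, adjusted p = 0.00205). Tsc22d3, encoding the glucocorticoid-induced leucine zipper GILZ, went from 7.79, 7.87 and 7.72 to 6.66, 6.75 and 6.86 (-1.05 ± 0.19, adjusted p = 0.0139). For these 3 genes no 6 h array overlapped a 1 h array, and the smallest fall in any line was 0.87, of Tsc22d3 in sh133.

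Per1, a clock repressor with a glucocorticoid response, went from 6.11, 5.82 and 6.13 to 4.86, 4.91 and 5.20 (-1.04 ± 0.13, adjusted p = 0.00324). Sgk1, a kinase (-1.19), Ddit4, an inhibitor of mTORC1 (-1.19), Cited2 (-0.95) and the corepressor Tle3 (-0.78) also fell. Fkbp5, a chaperone partner of the receptor, changed less, from 7.77, 7.63 and 8.03 to 7.33, 7.19 and 7.16 (-0.48 ± 0.10, adjusted p = 0.0284). The receptor gene itself, Nr3c1, was at 6.04, 5.78 and 6.13 and then at 5.92, 5.66 and 6.13 (-0.14 ± 0.13, adjusted p = 0.655), and the metallothionein genes Mt1 and Mt2 had -0.20 and -0.16, not past the threshold. The 9 calls went to 4 without sh14 at 6 h and to 4 without scr at 1 h, and Klf9, Zbtb16, Per1 and Tle3 held without any 1 array.

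Of 22 tested genes of erythropoietin receptor signalling, Epor and Sos1 rose and Cbl fell. These 3 calls are 13.6% of the list, against 4.86% of all tested genes. Epor, the receptor, was at 6.55, 6.08 and 6.52 at 1 h and 7.08, 6.57 and 6.78 at 6 h (0.51 ± 0.12, adjusted p = 0.0474). Sos1, which loads RAS with GTP, rose by 0.66 ± 0.10 (adjusted p = 0.00798), and Cbl, a ubiquitin ligase that removes active receptors, fell by 0.62 ± 0.13 (adjusted p = 0.0274). Without scr at 6 h none of the 3 passed, with adjusted p = 0.235 for Epor, 0.0614 for Sos1 and 0.0858 for Cbl. Jak2 (-0.25 ± 0.13, adjusted p = 0.342), Stat5a (-0.08, adjusted p = 0.743) and Stat5b (-0.16, adjusted p = 0.635) did not pass.

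Plcg1, the gene both hairpins target, had 4.74, 4.16 and 4.53 at 1 h and 4.45, 3.86 and 4.35 at 6 h (-0.25 ± 0.14, adjusted p = 0.375), with overlapping values. Plcg2, its sister gene, had -0.42 ± 0.11 (adjusted p = 0.0619). None of the 29 tested genes of phospholipase C, protein kinase C and calcium release was called by limma (0, with 6 at an unadjusted p under 0.05). Kit, the SCF receptor, was lower in each line at 6 h, 7.88, 6.89 and 7.67 against 6.97, 6.39 and 6.71, but the groups overlapped and it missed the threshold (-0.78 ± 0.21, 95% confidence interval -1.25 to -0.32, adjusted p = 0.0645). Of 19 tested genes of the progenitor list 4 rose and 2 fell (31.6%, against 4.86% of all tested genes), with a list median of 0.13. The falls were the ETS factor genes Ets1 (-0.91, adjusted p = 0.0154) and Etv6 (-0.56, adjusted p = 0.0464). The rises were Zfpm1, Tal1, Lmo2 and Sox6, which are also erythroid regulators described below. The 6 calls of the progenitor list went to 1 without sh14 or scr at 6 h. Progenitor factor genes Myb (-0.12), Gata2 (-0.07) and Myc (-0.08) did not pass.

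Transcripts of amino acid and endoplasmic reticulum stress gave 4 falls and 0 rises among 29 tested genes. Chac1, a glutathione-degrading enzyme induced by ATF4, fell most. It had 5.63, 7.38 and 5.91 at 1 h and 2.92, 4.46 and 3.95 at 6 h (-2.60 ± 0.40, adjusted p = 0.00681, and 0.0739 without scr at 6 h). Herpud1 (-0.97 ± 0.12, adjusted p = 0.0034), which serves protein disposal from the endoplasmic reticulum, the factor gene Ddit3 (-0.78) and the chaperone gene Dnajb9 (-0.75) fell too. By its brightest probe set Ddit3 fell by 0.78 in scr and 0.93 in sh14 but by 0.08 in sh133. Its second probe set, of mean signal 5.37, fell by 0.57, 0.57 and 0.53. Asns (-0.09), Xbp1 (-0.07) and Hspa5 (0.11), central targets or factors of these responses, did not pass, nor did Atf4 (-0.48, adjusted p = 0.306). The 4 calls went to 1 (Herpud1) without scr at 6 h.

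The Chac1 promoter is shown for 1 copy of the amino acid response element TGATGCAA, here on the opposite strand at base -193 from the start. The window is chr2:119350992-119351271 (GRCm38.p6, plus strand, RefSeq), with the element in capitals.
Chac1: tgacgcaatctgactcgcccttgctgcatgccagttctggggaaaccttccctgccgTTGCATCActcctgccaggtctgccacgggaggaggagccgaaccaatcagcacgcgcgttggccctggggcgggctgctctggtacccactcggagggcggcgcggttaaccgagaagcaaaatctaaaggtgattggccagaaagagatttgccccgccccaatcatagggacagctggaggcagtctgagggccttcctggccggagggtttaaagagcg
The element was in 4 of 164 promoters of falling genes (2.44%), 1 of 227 of rising genes (0.44%) and 0.55% of all, counts too small to order the groups.

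Genes of glycolysis and hypoxia moved down where they moved: 7 of 29 fell and 0 rose, with a list median of -0.24. Egln3, a prolyl hydroxylase that hypoxia induces, went from 4.71, 4.24 and 4.78 to 3.15, 2.74 and 2.24 (-1.64 ± 0.13, adjusted p = 0.000907). The glucose transporter gene Slc2a3 was high, at 8.80, 8.68 and 8.73, and went to 8.04, 8.16 and 7.89 (-0.67 ± 0.15, adjusted p = 0.0343). Bnip3, Ddit4 and the glycolytic enzyme genes Pfkl, Hk1 and Pgam1 were the others. Of these 7, Egln3 alone held without any 1 array, and without scr at 6 h it was the single call left. Ldha (-0.18), Pgk1 (-0.24), Vegfa (-0.11) and Pdk1 (0.11), also hypoxia targets, did not pass.

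Other metabolic and growth lists gave few or no calls. Among 48 ribosome biogenesis genes, 16 cytosolic ribosomal protein genes, 20 heat shock genes and 10 histone genes, limma called 0, with 3, 1, 4 and 2 at an unadjusted p under 0.05. Hspa1b, the inducible HSP70 gene, had 3.72, 4.20 and 3.65 at 1 h and 5.87, 4.58 and 6.53 at 6 h. It was 2.15 higher in scr and 2.88 in sh133 but 0.38 in sh14, and missed the threshold (1.70 ± 0.49, adjusted p = 0.0819). Among 25 MYC network genes the MYC antagonist Mnt fell (6.93, 6.85 and 6.78 to 5.82, 6.07 and 6.06, -0.88 ± 0.12, adjusted p = 0.00416). Ppargc1b was the 1 riser (0.70) of 22 oxidative phosphorylation genes, and Slc43a1, an amino acid transporter, the 1 riser (0.66) of 22 amino acid genes. Without sh14 at 6 h neither call remained.

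In the cell cycle lists most genes did not pass. The called shares, 4.44% of S phase and 6.38% of mitotic genes, were near the 4.86% of all tested genes. Of 45 S phase genes, Pola1, the catalytic subunit of DNA polymerase alpha, and E2f2 fell and 0 rose. Pola1 went from 7.08, 7.08 and 7.10 to 6.29, 6.43 and 6.53 (-0.71 ± 0.12, adjusted p = 0.011, and 0.099 without scr at 6 h). Lower values in all 3 lines were seen for 20 of the 45, and the list median was -0.19. Of 47 mitotic genes 3 rose and 0 fell: the kinase genes Plk1 (5.79, 5.48 and 5.78 to 6.39, 6.26 and 6.45, 0.77 ± 0.17, adjusted p = 0.0325) and Aurka (0.72, adjusted p = 0.0418), and the phosphatase gene Cdc25b (0.55, adjusted p = 0.0197). Higher values in all 3 lines were seen for 27 of the 47, and the list median was 0.17. Among all tested genes 40.9% had 1 sign, of either direction, in all 3 lines. None of the 3 mitotic calls held without scr at 6 h, and after centring on array medians 1 of them passed.

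Among 19 genes known as p53 targets, in cells that lack p53, 5 fell and 2 rose. Bbc3, encoding the cell death activator PUMA, went from 5.52, 5.80 and 5.62 to 4.40, 4.77 and 4.93 (-1.04 ± 0.18, adjusted p = 0.0119). Cdkn1a, Ddit4, Gadd45b (-0.63) and Mdm4 (-0.52) were the other falls, and Phlda3 (0.78 ± 0.14, adjusted p = 0.0145) and Zmat3 (0.53, adjusted p = 0.047) the rises. Cdkn1a and Ddit4 are also STAT5 and glucocorticoid list members, so their calls are counted again here. In the BCL2 family 3 of 16 fell (Bbc3, Mcl1 and Bnip3), which act for and against survival, and Bcl2l11, encoding BIM, had 0.46 (adjusted p = 0.0765). Without scr at 6 h 2 of the 7 p53 target calls and 1 of the 3 BCL2 family calls remained, and without sh14 at 6 h 1 and 1.

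Of 26 tested erythroid regulator genes 11 rose and 1 fell, with a list median of 0.35. Klf1, which switches on the adult globin, heme and membrane genes, went from 8.74, 8.26 and 8.78 at 1 h to 9.70, 9.19 and 9.49 at 6 h. The fitted change was 0.92 ± 0.11 (95% confidence interval 0.67 to 1.16, adjusted p = 0.00284), or 1.89-fold, and no 6 h array overlapped a 1 h array. Nfe2, the erythroid subunit of the globin enhancer factor NF-E2, went from 7.09, 7.24 and 7.50 to 8.06, 7.95 and 7.91 (0.79 ± 0.11, adjusted p = 0.00612). Klf3, a repressor that KLF1 induces, was at 6.75, 6.71 and 6.71 and then at 7.64, 7.40 and 7.67 (0.78 ± 0.11, adjusted p = 0.00462). Its other probe sets with a signal of at least 3 changed less, by means of -0.05, 0.45, 0.08 and 0.11.

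Bcl11a, a silencer of embryonic globin genes, went from 6.85, 7.01 and 6.99 to 7.77, 7.57 and 7.97 (0.75 ± 0.12, adjusted p = 0.00925). Zfpm1, encoding the GATA1 partner FOG1, went from 6.46, 6.58 and 6.71 to 7.17, 7.15 and 7.38 (0.67 ± 0.10, adjusted p = 0.00633). Members of the TAL1 complex rose by smaller amounts, with Cbfa2t3 at 0.62, Tal1 at 0.51 and Lmo2 at 0.46. Gfi1b rose from 8.06, 7.61 and 7.86 to 8.65, 8.24 and 8.33 (0.62 ± 0.09, adjusted p = 0.00637), and Sox6, a partner of BCL11A, rose by 0.61. Gata1, the central erythroid factor, was higher in each line, 7.83, 7.73 and 7.80 against 8.27, 8.14 and 8.40, and the groups did not overlap. It missed the threshold (0.44 ± 0.11, 95% confidence interval 0.19 to 0.70, adjusted p = 0.057). Nfe2l2, encoding NRF2, rose by its brightest probe set (0.74), but its second, dim probe set fell by 1.69 on average and its direction is uncertain. E2f2 was the 1 that fell, from 6.27, 6.48 and 6.21 to 5.73, 5.71 and 5.75 (-0.69 ± 0.13, adjusted p = 0.019). Its second probe set, of mean signal 4.97, changed by -0.49, -0.87 and 0.12. Of the 12 calls, 2 (Klf1 and Klf3) remained without scr at 6 h, where the adjusted p of Nfe2 and Zfpm1 was 0.0614 and that of Bcl11a 0.0917. After centring on array medians 9 rose and 1 fell.

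Of 20 tested genes of globins and heme synthesis 6 rose and 0 fell (list median 0.38). The enzyme genes Uros (6.26, 6.35 and 6.12 to 7.30, 7.19 and 7.23, 1.01 ± 0.13, adjusted p = 0.0036), Alad (8.41, 8.31 and 8.53 to 9.25, 8.92 and 9.65, 0.71 ± 0.16, adjusted p = 0.0375) and Urod (0.40 ± 0.09, adjusted p = 0.0426) rose. These enzymes build the porphyrin ring. The mitochondrial transporters Abcb10 (0.54) and Tmem14c (0.45) and the heme exporter Flvcr1 (0.71) rose too. For the first step, Alas1 had 0.70 ± 0.18 (adjusted p = 0.0569), and the erythroid Alas2 differed by -0.05, 0.51 and 1.37 in the lines (0.36 ± 0.21, adjusted p = 0.398). The adult globin Hbb-b2 differed by 0.86, 0.02 and 2.10 and did not pass (0.59 ± 0.21, adjusted p = 0.152), and Fech, for the last step, had -0.23. Uros alone of the 6 calls held without any 1 array, being also the single call left without scr at 6 h, and 2 calls passed after centring on array medians.

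Slc25a37, encoding mitoferrin 1, which carries iron into mitochondria, was the 1 iron gene of 19 tested that passed. It rose from 6.60, 5.69 and 5.92 to 7.72, 6.72 and 7.57 (1.17 ± 0.15, adjusted p = 0.00323), or 2.24-fold, and its call held without any 1 array. The transferrin receptor gene Tfrc was higher by 0.56, 0.80 and 0.01 (0.60 ± 0.18, adjusted p = 0.103). In all, 10 of the 19 iron genes were higher and 0 lower in all 3 lines, where 40.9% of all tested genes had 1 sign. The 1 call is 5.26% of the list, near the 4.86% of all tested genes.

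Among 32 red cell membrane and surface genes 5 rose and 1 fell (list median 0.25). Dmtn, which bundles actin at the junctions of the membrane skeleton, went from 3.33, 3.07 and 2.93 to 4.95, 3.99 and 4.68 (1.45 ± 0.21, adjusted p = 0.00628, and 0.0605 without scr at 6 h). Its other probe sets rose less, by means of 0.35 and 0.47. Gypc, glycophorin C, went from 5.98, 5.52 and 6.07 to 6.64, 6.43 and 6.80 (0.78 ± 0.12, adjusted p = 0.00639). Tmod1, which caps the short actin filaments, went from 4.52, 4.56 and 5.22 to 5.11, 5.23 and 6.32 (0.68 ± 0.10, adjusted p = 0.00612); its sh133 arrays were high at both times, so the groups overlapped. Tspan33 (0.64) and Epb42 (0.56) rose and Add2, an adducin, fell (-0.49 ± 0.11, adjusted p = 0.0388). The anion exchanger gene Slc4a1 (0.13 ± 0.24, adjusted p = 0.835) and Rhag (-0.00) did not pass. The 6 calls went to 2, Gypc and Tmod1, without scr at 6 h.

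**Figure D3:**
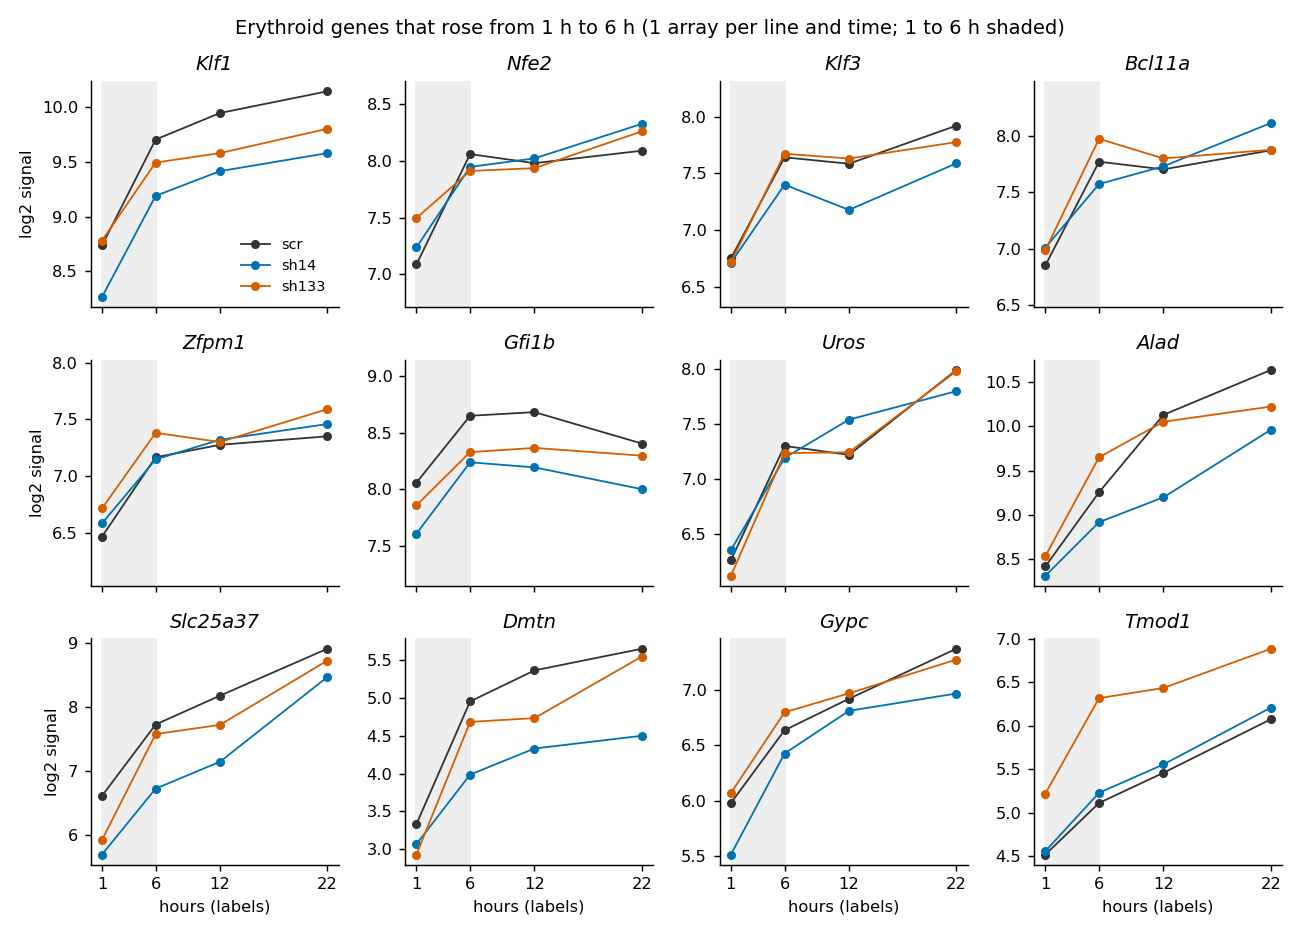
Log2 signal of 12 erythroid genes that rose, against labelled hours, drawn as for the falling genes with 1 array per line and time. All 12 are higher at 6 h than at 1 h in each line, with Klf1 between 8.26 and 8.78 at 1 h and between 9.19 and 9.70 at 6 h.

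Of the 14 largest rises among genes that met the naming rule (common to the lines, signal at least 3, no predicted genes), 12 lay outside these lists, all but Dmtn and Slc25a37. By its brightest probe set Mblac2, a metallo-beta-lactamase domain protein, led the named genes. It went from 3.66, 3.17 and 2.56 to 5.04, 5.13 and 4.00 (1.70 ± 0.25, adjusted p = 0.00616), or 3.25-fold. A probe set of nearly equal mean signal, 4.06 against 4.09, rose less, by 0.49, 0.80 and 0.11. A dim probe set, of mean signal 2.33, rose by 1.20 on average. The size of the Mblac2 rise, and so its leading place, thus depends on the probe set. Hipk2, a nuclear kinase, went from 6.63, 5.95 and 5.81 to 8.01, 7.06 and 8.02 (1.45 ± 0.22, adjusted p = 0.0074). Its second probe set rose by 1.58 on average, and 3 dim ones did not rise on average. Ccnb1ip1, a ubiquitin ligase of cyclin B, went from 7.07, 7.83 and 7.55 to 8.74, 9.08 and 8.55 (1.43 ± 0.12, adjusted p = 0.000907).

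Tgfb2, a secreted ligand of the TGF-beta family, went from 4.83, 4.79 and 5.36 to 6.42, 6.30 and 6.61 (1.46 ± 0.28, adjusted p = 0.0197, and 0.154 without scr at 6 h). Its 3 other probe sets rose by means of 1.79, 1.78 and 0.83. Vsir, an immune checkpoint receptor gene, rose from near background (1.37, 1.99 and 1.57) to 3.35, 2.71 and 3.33. Fam222b (1.20), Thap2 (1.20), Scoc (1.16), the mast cell protease gene Mcpt2 (1.14), Paqr9 (1.14), Tsc22d1 (1.12) and Dtx4 (1.11) filled the remaining places among the 14. Of those 14 genes, 6 kept their call without any 1 array besides Slc25a37 (Ccnb1ip1, Fam222b, Thap2, Paqr9, Tsc22d1 and Dtx4). Without scr at 6 h the calls of Mblac2, Hipk2, Tgfb2, Dmtn, Vsir, Scoc and Mcpt2 were lost.

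The Tgfb2 promoter is printed for the 1 E-box CACGTG it holds, at base -51 from the start. The window is chr1:186705960-186706239 (GRCm38.p6, minus strand, RefSeq), with the E-box in capitals.
Tgfb2: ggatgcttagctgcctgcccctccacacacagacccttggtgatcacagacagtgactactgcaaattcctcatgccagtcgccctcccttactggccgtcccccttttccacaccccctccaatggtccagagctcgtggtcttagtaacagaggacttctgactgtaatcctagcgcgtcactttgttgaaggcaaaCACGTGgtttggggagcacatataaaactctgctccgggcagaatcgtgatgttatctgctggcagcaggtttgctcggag
An E-box was in 7.49% of promoters of rising genes, 11.6% of falling genes and 9.66% of all.

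Large falls outside the lists included membrane and adaptor genes. Gask1b, a secreted Golgi kinase homologue, went from 6.38, 5.38 and 4.84 to 3.33, 3.82 and 1.22 (-2.43 ± 0.45, adjusted p = 0.0165), and its fall was smallest in sh14. By their brightest probe sets, the KLHL adaptor genes Klhl15 (-1.88) and Klhl6 (-1.84) and the amino acid transporter gene Slc7a8 (-1.84) fell in each line. The integrin regulator gene Cytip (-1.73) and Trnp1 (-1.73) did too. Hpgd, which inactivates prostaglandins, went from 6.30, 5.81 and 6.20 to 4.44, 4.62 and 2.91 (-1.70 ± 0.25, adjusted p = 0.00628), lowest in sh133 at 6 h. For 10 of the 28 genes of largest change another probe set reached a signal of 3, and all 19 such probe sets moved the same way as the brightest. Only direction was compared, and dimmer probe sets were left out and were mixed. The second of Klhl15, of mean signal 2.61 against 2.87, changed by -0.28, 0.16 and -0.03. That of Vsir, 2.79 against 3.02, rose by 0.42 on average against 1.49, while the third of Klf6, of 2.79, fell by 2.40. Calls lost without scr at 6 h among the falls were those of Dusp4, Chac1, Gask1b, Klhl6, Slc7a8, Trnp1 and Hpgd.

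**Figure D4:**
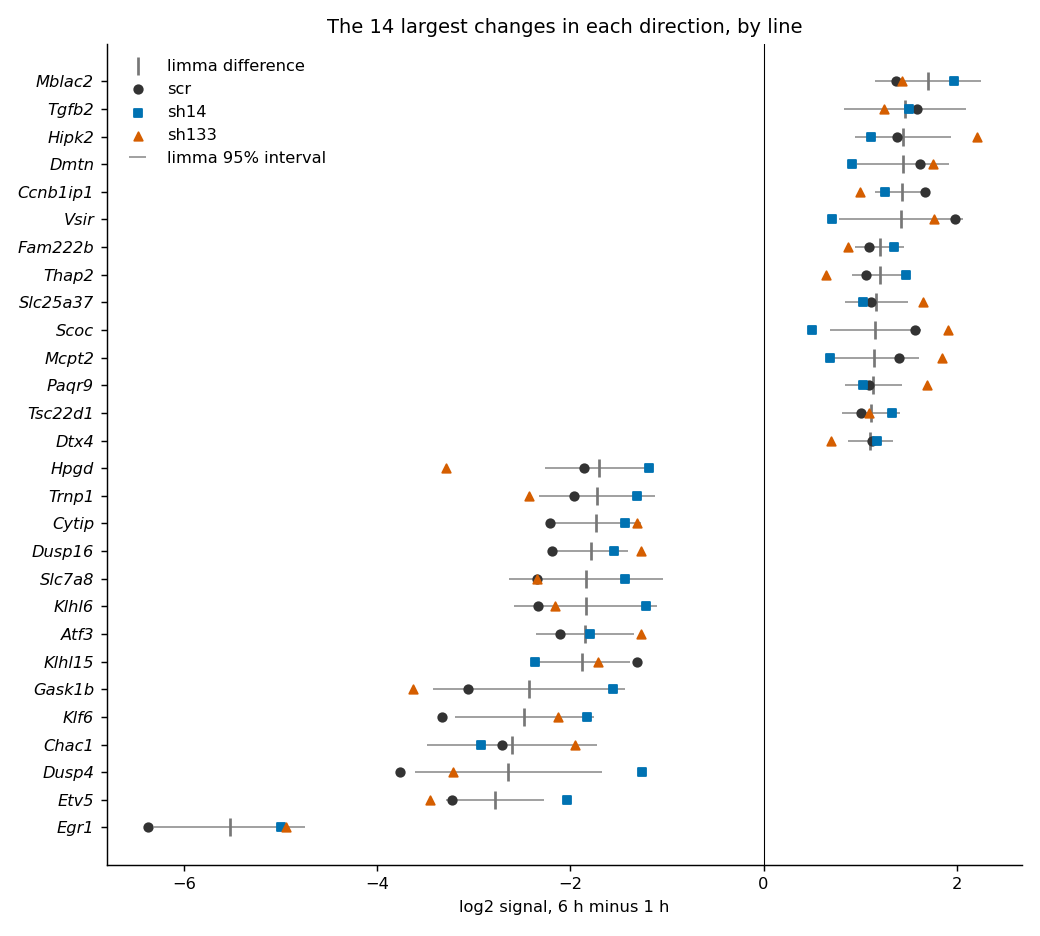
The 14 genes of largest fall and the 14 of largest rise, with the log2 difference between 6 h and 1 h in each line (points), the limma difference (tick) and its 95% confidence interval (line). Egr1 lies between -6.37 and -4.94 in the 3 lines, and the next fall is that of Etv5 (-2.78). By its brightest probe set Mblac2 (1.70) leads the rises among genes that met the naming rule. A predicted gene rose by 1.89.

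Further lists gave scattered calls. Id2, an inhibitor of basic helix-loop-helix factors, went from 2.67, 4.38 and 3.30 to 1.82, 2.48 and 1.94 (-1.38 ± 0.21, adjusted p = 0.00699), and the ligand gene Bmp2 from 6.81, 4.90 and 5.28 to 5.22, 3.77 and 4.66 (-1.35 ± 0.22, adjusted p = 0.00971). With Id3 these were the 3 calls of 18 BMP and ID genes. Of 16 clock genes the repressors Bhlhe40 (-1.33), Nr1d2 (-1.12) and Per1 fell and Per3 rose (0.40). The adhesion list gave 2 falls in 25, Anxa2 (-1.26) and Vim (-0.69). Usp18, an interferon-induced protease gene that lay near background at 1 h (1.06, 1.42 and 1.02), rose to 2.01, 2.56 and 2.04 (1.05 ± 0.15, adjusted p = 0.00612), while Ifih1 (-0.63) and Psmb9 (-0.53) fell. The 3 BMP and ID calls went to 0 without sh14 at 6 h and the 2 adhesion calls to 0 without either scr array. The interferon and FOXO calls each went to 1 without scr at 6 h, and the clock calls to 2 without sh14 at 6 h or scr at 1 h. None of the autophagy or NF-kB calls was left without scr at 6 h. The FOXO list gave 3 falls and 1 rise of 19, the autophagy list 2 falls of 31, the NF-kB list 1 fall of 22 and the cyclin and CDK inhibitor list 1 fall and 1 rise of 24. Over all 33 lists 741 genes were tested and 103 called, 15 of them counted in several lists.

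**Figure D5:**
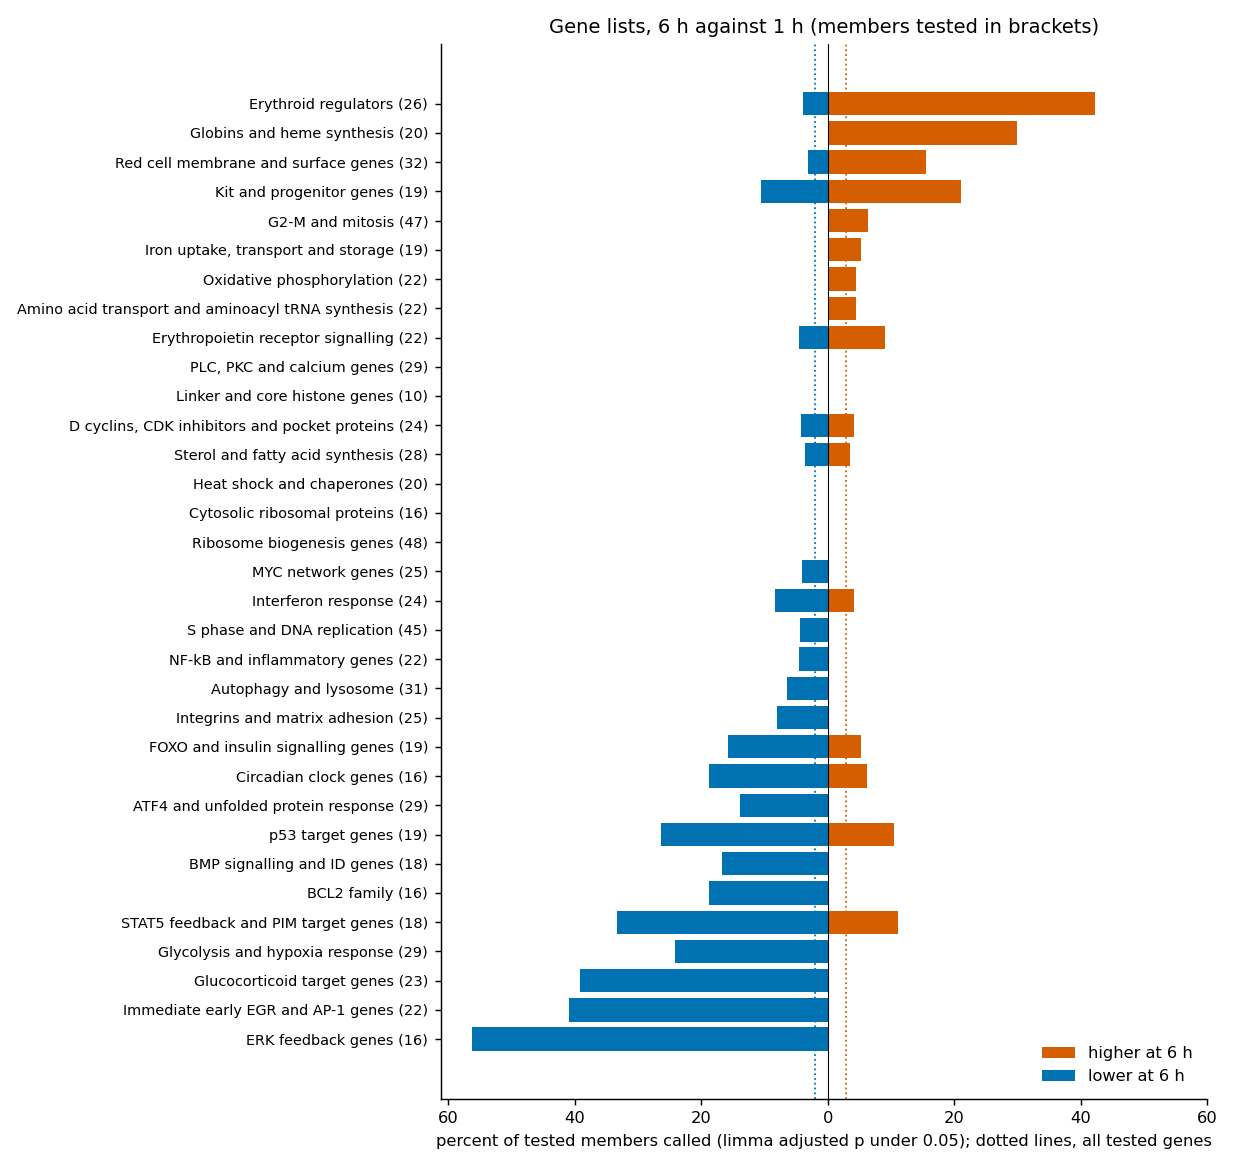
Percent of tested members called in each of 33 gene lists (members tested in brackets), higher at 6 h to the right and lower to the left, with dotted lines at the shares of all tested genes (2.93% higher, 1.93% lower). ERK feedback genes have the longest bar to the left (56.2%), and erythroid regulators have the longest to the right, with 11 of 26 higher.

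Letters searched on both strands of the promoter windows were found at similar shares in rising, falling and all genes for most motifs. The largest gap was for TGACGT, part of the cAMP response element, which was in 18.3% of promoters of falling genes, 8.37% of rising genes and 11.7% of all. The GATA letters AGATAA were in 6.71% of falling, 7.05% of rising and 6.15% of all promoters. The CACCC box CCACACCC, bound by Krüppel-like factors, was in 4.27%, 5.73% and 3.97%. The EGR letters GCGTGGG were in 9.76%, 11.0% and 7.66%, and the AP-1 letters TGANTCA in 4.27%, 5.29% and 4.33%. The ETS letters CCGGAAGT were in 5.49%, 5.73% and 7.92%, the E2F letters TTTCCCGC in 1.83%, 1.32% and 2.08%, and the cell cycle letters TTTGAA in 10.4%, 11.5% and 11.3%. The CArG core, the letters of serum response factor, was in 1 of all 8133 windows. No motif contains another, though matches can share bases, and no test was made.

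The later step called fewer genes, and most of them were not early calls. From 12 to 22 h, on 6 other arrays, 158 genes were called (1.25%), 54 higher (0.426%) and 104 lower (0.821%). At an unadjusted p under 0.05 limma gave 2181 genes, against 2391 in the early step. The median size of change over all tested genes was 0.138, against 0.133 in the early step. The steps share no array, but both use the title date term, which only sh133 informs, through its arrays of both steps. An error in that term shifts the 2 estimates in opposite directions. They are thus not independent, and the fit favours opposite signs. Of the 616 early calls 40 were called in the late step too, 20 in the same and 20 in the opposite direction. They are 6.49% of the early calls, where 1.25% of all tested genes were late calls. They are 25.3% of the late calls, where 4.86% of all tested genes were early calls. The 2 steps differed for 278 genes (2.19%), higher in the early step for 190 (1.5%) and lower for 88 (0.694%), and 189 of these were early calls (30.7% of the 616). For the other early calls no difference between the steps was shown. Klf9 (late 0.06, early minus late -1.60, adjusted p = 0.0162) and Cish (late 0.16, early minus late -1.72, adjusted p = 0.0196) fell in the early step and did not pass in the late step. Egr1 also differed (early minus late -5.25, adjusted p = 0.00806), but started the late step at its low level of 2.63, 3.40 and 3.56.

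Some genes turned back in the fit, whose date term favours opposite signs. Bnip3 went from 6.56, 5.80 and 6.01 at 1 h to 5.04, 5.44 and 5.59 at 6 h, and from 5.39, 5.52 and 5.56 at 12 h to 6.53, 6.58 and 6.66 at 22 h (late 1.19 ± 0.20, adjusted p = 0.0313). Ddit3 did likewise (late 0.89, adjusted p = 0.0431). Flvcr1 rose by 0.71 and later fell by 0.87 (adjusted p = 0.0324), and Crtap (0.79 and -1.06), Tesk1 (0.67 and -0.85), Slc35e3 (0.88 and -0.65) and Ccnd2 (0.48 and -0.65) followed the same course. Tsc22d3 was again higher at 22 h in sh14 (7.60) and sh133 (7.64) than in scr (6.73), but its late change did not pass (0.68 ± 0.19, adjusted p = 0.104).

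Others went on in the same direction. Slc25a37 rose by 1.12 ± 0.15 from 12 to 22 h (adjusted p = 0.0183), Tmod1 by 0.68, Epb42 by 1.13 and Sox6 by 0.94, and Hpgd, Anxa2 and Ets1 fell by 1.80, 1.43 and 0.88. Vim, the intermediate filament gene that red cells lose as they mature, fell little in the early step (7.58, 8.15 and 7.24 to 6.91, 7.28 and 6.49, -0.69 ± 0.17, adjusted p = 0.043) and to 2.07, 2.54 and 1.39 by 22 h (late -3.45 ± 0.17, adjusted p = 1.39e-05). Alas2, Hbb-b2 and Slc4a1, none of which passed in the early step, rose from 12 to 22 h by 1.36, 1.23 and 1.44 (adjusted p = 0.0245, 0.0304 and 0.0304). For these 3 genes the difference between the steps was not past the threshold (adjusted p = 0.13, 0.343 and 0.101).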

How the data were processed

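Per the labels' protocols, RNA of 12 I/11 samples was amplified and biotin labelled for Affymetrix arrays. The deposited values are log2 probe set signals that the authors computed by RMA (source: the submitters' processing notes), no version being named; RMA equalises array distributions, so a shift in total RNA cannot be read. The platform annotation named 1 gene for 34958 of 45101 probe sets, several for 932 and none for 9211; 34754 were matched to RefSeq (GRCm38.p6). The brightest probe set stood for each of 18194 genes, and 12673 with a mean over all 12 arrays above the 40th percentile (log2 1.45) were tested. Genes high at 1 h alone, such as Etv5 and Fos, passed this filter only through those arrays. limma 3.58.1 (R 4.3.3) fitted time, line and title date on all 12 arrays (5 residual degrees of freedom), with Benjamini-Hochberg adjustment over all genes; the number of arrays limits precision. Lines pair arrays by the labelled shRNA id; replicate numbers follow deposit order and pair nothing. The pipeline was tested on simulated data. Named genes were the 14 largest called changes each way that were common to the lines (signal at least 3, predicted genes left out), up to 5 called members per list, the 2 of smallest p where none was called, 15 always named and up to 6 called in both steps; genes outside this rule were picked once their values had been seen. Members and lists were chosen with earlier results of these data known. Promoter shares cover genes with 1 listed RefSeq start. Alternatives changed terms, filter, probe sets, scaling, variance model and arrays. Figures used Python 3.11.15.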

Additional observations from a re-analysis of the deposited data

How the results depend on the processing

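Outside the scalings, direction was followed for the named genes. Over 19 alternatives the 28 genes of largest change gave 529 values, of which 73 missed the threshold and 0 reversed. Over all 127 named genes, 1765 of 2403 values kept direction and side, 605 lost the call, 24 gained one and 9 reversed. The 616 calls and the 605 common to the lines became 946 and 946 with no title date term, 255 and 254 with no replicate block (no line term), 133 and 133 with scr and sh14 alone, 4 and 4 without the scr line (limma, 1541 at an unadjusted p under 0.05), 165 and 164 without the sh14 line, and, leaving out 1 array, 97 to 684 and 97 to 673. With the 6 arrays of 1 h and 6 h alone and the line as replicate block, 606 passed.

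The 158 calls of 22 h against 12 h became 0 with no replicate block (1431 at an unadjusted p under 0.05), 3 with scr and sh14 alone, 0 without the scr line (1707 at an unadjusted p under 0.05), 4 without the sh14 line and 97 after quantile normalization again. The 278 for the early minus the late step became 676 with no title date term, 101 with no replicate block, 8 with scr and sh14 alone, 0 without the scr line (1420 at an unadjusted p under 0.05) and 3 without the sh14 line. Leaving out a line also leaves 2 or 3 residual degrees of freedom.

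None of the 9 reversed values passed the threshold but that of Nfe2l2, which was -0.48 (adjusted p = 0.0209) with the mean of all probe sets. The others belong to genes not called: Stat5b 0.031 without the scr line, Gata2 0.013 without the sh14 line and 0.10 with the mean of all probe sets, Myc 0.12 without the sh14 line, and Stat5a 0.0070 with the mean of all probe sets. Leaving out 1 array gave -0.386 to 0.052 for Stat5b, above 0 without scr at 1 h, and -0.225 to 0.13 for Gata2 and -0.211 to 0.11 for Myc, both above 0 without sh14 at 6 h. Signals near background limit the size of falls such as those of Etv5, Dusp4 and Fos.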

Other observations

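Sterol and fatty acid synthesis genes differed in direction between the lines. The 28 tested genes had median differences from 1 to 6 h of 0.48 (scr), 0.12 (sh14) and -0.29 (sh133), where all genes had 0.01, 0.05 and 0.02. Mvk, encoding mevalonate kinase, was called (0.91 ± 0.19, adjusted p = 0.0242), at 4.44, 4.75 and 4.80 at 1 h and 5.81, 5.41 and 4.85 at 6 h in scr, sh14 and sh133. By this probe set the rise of 1.37 in scr was not seen in sh133 (0.05). The second Mvk probe set, of mean signal 4.40 against 4.99, rose by 0.54, 0.19 and 0.29 in scr, sh14 and sh133. Srebf1, a regulator of lipid synthesis, fell in each line (-0.59, adjusted p = 0.0336). Neither call held without scr at 6 h. Each line has 1 pair of arrays, so the difference between lines was not tested, and the sh133 pair also crosses title dates. The 11 called genes that moved the other way in sh133 are affected by the same design, since the fit takes the date term from sh133.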
